A study of Homo sapiens with 6 samples.

Results

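The regulators of the integrated stress response described here are 10 genes, ATF4, ATF5, ATF3, DDIT3, CEBPB, PPP1R15A, TRIB3, CHAC1, SESN2 and DDIT4. They were picked by gene symbol from the 19470 genes of the deposited count table, and all 10 were among the 13066 genes that passed the filter on low counts. The RNA came from HCCC9810, an established human cholangiocarcinoma (CCA) cell line of wild type genotype, so the values describe 1 line at 1 dose and 1 time point. Cells received isolinderalactone (ILL), a plant lactone of the sesquiterpenoid class found in Lindera aggregata, at 20 μM for 24 h, or the DMSO vehicle for 24 h, and 3 libraries were sequenced per group. The labels do not say whether the 3 libraries of a group came from separate cultures, and p-values therefore measure only the spread between these libraries, which may be technical.

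The integrated stress response begins with kinases that sense unfolded protein, amino acid shortage, double-stranded RNA or mitochondrial and heme stress and phosphorylate the translation factor eIF2 on its alpha subunit. Most protein synthesis then slows, while the mRNA of ATF4 is translated better because of short upstream reading frames in its leader. ATF4 and its partners switch on further transcription factors, a phosphatase subunit that reverses the phosphorylation, and genes of amino acid, redox and growth control. The libraries measure mRNA levels only, and translation and eIF2 phosphorylation were not measured in them.

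Total counts lay between 34282764 and 37758569 per library. Of 8 epithelial and biliary marker genes, 7 were above a mean of 1 CPM, and the summed level of the list was 9050 to 9290 CPM in control and 9530 to 10100 CPM in ILL libraries. CPM is the read count relative to the library size as adjusted by edgeR's TMM method. The summed level of 5 hepatocyte markers was 28.5 to 33.4 CPM in control and 27.7 to 43.2 CPM with ILL, and that of 5 fibroblast markers 11.9 to 13.8 and 16.8 to 18.2 CPM, led by COL1A1. The sum of 7 blood and endothelial markers was 37.4 to 41.3 and 112 to 118 CPM, nearly all of it CD68, a lysosomal protein gene. In 1 gene of the blood list the replicate 1 libraries held 132 and 146 counts and the other 4 libraries 0, and every regulator kept its call without either of these libraries in turn. The part of these markers in the results below was not tested.

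Of the 10 regulators, 8 were differentially expressed genes (DEGs) higher with ILL, against 12.5% of all tested genes, and 0 were DEGs lower with ILL, against 11.4%. A DEG had an adjusted p-value under 0.05 in edgeR's quasi-likelihood test and a fold change above 2 or under 0.5. By the adjusted p-value alone, 9 regulators rose (36.2% of all tested genes) and 1, ATF5, fell (36.9%), and DESeq2 likewise called 8 DEGs higher and 0 lower. In 9 regulators every ILL library lay above every control library (37.5% of tested genes), and in ATF5 every ILL library lay below every control library (38.0%). The median log2 fold change was 2.18 over the 10 regulators and -0.0012 over all tested genes. DEGs higher made up 52.4% of all DEGs in this fit, and 42.0% to 42.3% with limma on the deposited FPKM. The reads of the 10 genes together made up 0.0758% to 0.0763% of a control library and 0.207% to 0.218% of an ILL library. In bulk RNA, a change in the share of cells that express a gene and a change in RNA per cell cannot be told apart.

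**Figure D1:**
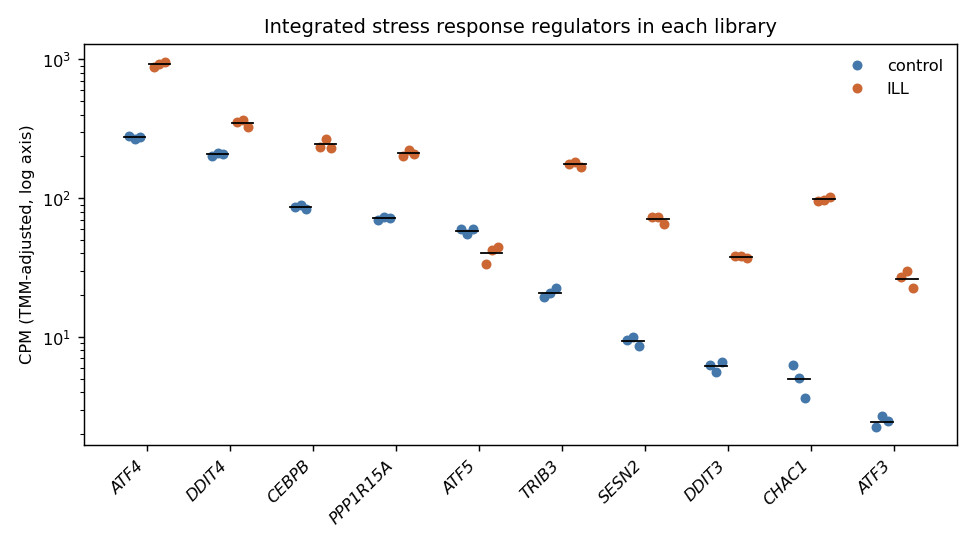
Level of each regulator in CPM (log axis) in the 3 control (blue) and 3 ILL (orange) libraries, with the group mean as a bar. The groups do not overlap for any of the 10 genes, and ATF5 alone is lower with ILL.

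Among the transcription factors, 4 rose as DEGs and ATF5 fell. ATF4, the factor at the centre of the response, lies on chromosome 22 of GRCh38 from 39519695 to 39522685 (GENCODE release 29). It was at 280, 266 and 278 CPM in control libraries and at 879, 925 and 954 CPM in ILL libraries. The most abundant of the 10 genes by reads thus had a gap between its groups much wider than the spread inside either. Its fold change was 3.35 and its log2 fold change 1.74 (standard error, SE, 0.05, 95% confidence interval 1.64 to 1.85, edgeR adjusted p = 7.9e-20). The annotation lists 4 ATF4 pseudogenes, and how reads shared with them were counted is not given in the sources used here.

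DDIT3, which encodes CHOP, a factor induced by ATF4 and tied to stress-related cell death, lies on chromosome 12 from 57516588 to 57521737. It was at 6.23, 5.58 and 6.64 CPM in controls and at 38.1, 38.1 and 37.1 CPM with ILL. The ILL libraries were nearly equal, and the fold change was 6.13, or 2.62 on the log2 scale (SE 0.10, edgeR adjusted p = 7.8e-18). DDIT3 runs opposite to MARS1, the cytosolic methionyl-tRNA synthetase gene, with 355 exon bases in common. MARS1 was at 2888, 2647 and 2891 counts in controls and 6254, 6715 and 6432 with ILL (log2 fold change 1.27). The strand setting of the counting is not given in the sources used here. Reads from the bases shared with MARS1 therefore cannot be assigned to either gene. DDIT3 also shares 58 exon bases with MBD6 on the opposite strand (log2 fold change 0.92) and 105 with AC022506.1. AC022506.1 lies on the same strand as DDIT3 and is not analysed here.

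ATF3, a stress-induced repressor and activator of the same basic leucine zipper class, lies on chromosome 1 from 212565334 to 212620777. It had 87, 94 and 87 counts in controls and 941, 1020 and 789 counts in ILL libraries, or 2.24, 2.67 and 2.46 CPM against 26.9, 29.6 and 22.6 CPM. It was the lowest of the 10 genes in control libraries, and its ILL libraries were spread more widely than those of DDIT3. The fold change was 10.7, or 3.42 on the log2 scale (SE 0.13, edgeR adjusted p = 3.2e-17).

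CEBPB, a C/EBP family factor that pairs with ATF4 on composite sites, lies on chromosome 20 from 50190734 to 50192689. It was at 87.0, 89.4 and 82.9 CPM in controls and 236, 267 and 229 CPM with ILL. ILL replicate 2 was the highest of the 6 libraries, and the fold change of 2.82 (log2 fold change 1.5, SE 0.06, edgeR adjusted p = 5.8e-17) was the smallest among the 8 DEGs. An antisense gene, CEBPB-AS1, shares 231 exon bases with it and is not analysed here.

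ATF5, a close relative of ATF4 that is also translated better during the stress response, went the other way. It lies on chromosome 19 from 49928702 to 49933935, and was at 59.9, 54.9 and 59.9 CPM in controls and at 33.7, 42.2 and 44.6 CPM with ILL. All ILL libraries lay below all control libraries, with ILL replicate 1 the lowest, and ATF5 fell by 0.54 on the log2 scale (SE 0.08, 95% confidence interval -0.70 to -0.37, edgeR adjusted p = 2.6e-06). This is 0.69 times the control level, which does not pass the cutoff for a DEG. The opposite strand carries NUP62, a nuclear pore gene, which shares 626 exon bases with ATF5. NUP62 was at 5220, 4919 and 4755 counts in controls and 1734, 1835 and 1920 with ILL, a log2 fold change of -1.37 (SE 0.06, edgeR adjusted p = 1.8e-16). Without strand information, reads of NUP62 in the shared bases cannot be told apart from reads of ATF5, and the part of NUP62 in the ATF5 value was not tested.

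**Figure D2:**
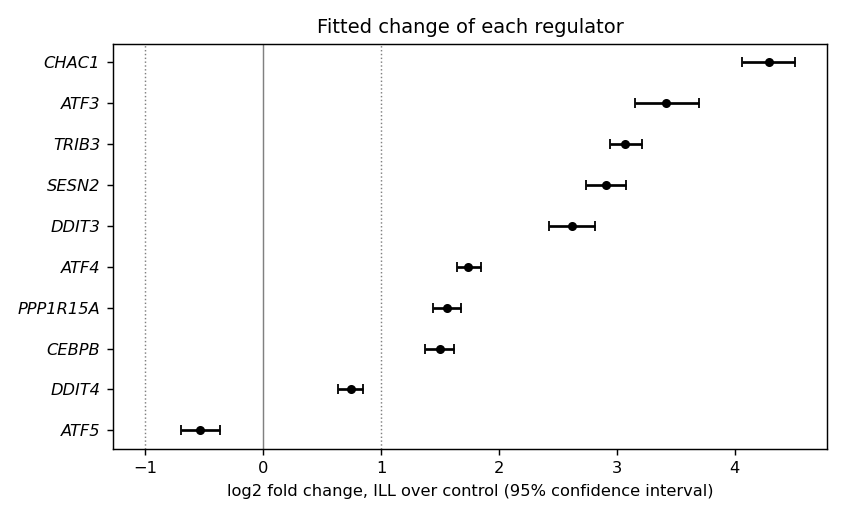
Fitted log2 fold change of each regulator, ILL over control, with its 95% confidence interval (bars), from edgeR. Dotted lines mark the fold change cutoffs of the DEG definition. CHAC1 has the highest value at 4.29, DDIT4 at 0.74 and ATF5 at -0.54 lie inside the cutoffs.

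The feedback regulators both rose. PPP1R15A encodes GADD34, which brings protein phosphatase 1 to eIF2 and so reverses the phosphorylation, and lies on chromosome 19 from 48872392 to 48876057. It was at 69.5, 73.4 and 71.5 CPM in controls and 202, 223 and 207 CPM with ILL, a fold change of 2.95 (log2 fold change 1.56, SE 0.06, edgeR adjusted p = 6.4e-18). TRIB3, a pseudokinase that binds ATF4 and CHOP and damps their activity, lies on chromosome 20 from 362835 to 397559. It was at 19.6, 20.7 and 22.4 CPM in controls and 176, 183 and 168 CPM with ILL. The TRIB3 groups were 8.41-fold apart, with a log2 fold change of 3.07 (SE 0.07, edgeR adjusted p = 5.0e-22), and 1.13% of tested genes had a higher log2 fold change.

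The effectors of redox and growth control rose by very different amounts. CHAC1, an enzyme that breaks down glutathione, lies on chromosome 15 from 40952962 to 40956519 and had 244, 177 and 129 counts in controls and 3313, 3346 and 3580 with ILL. These are 6.28, 5.04 and 3.65 CPM against 94.6, 97.2 and 102 CPM, so that the control libraries differed from each other much more, in proportion, than the ILL libraries did. Its fold change of 19.5 (log2 fold change 4.29, SE 0.11, edgeR adjusted p = 7.4e-21) was the highest of the 10 and ranked 44 among the 13066 tested genes. SESN2 encodes sestrin 2, a leucine sensor that restrains the growth kinase complex mTORC1, and lies on chromosome 1 from 28259527 to 28282491. It was at 9.50, 9.96 and 8.65 CPM in controls and 72.6, 73.5 and 65.3 CPM with ILL, a fold change of 7.52 (log2 fold change 2.91, SE 0.08, edgeR adjusted p = 4.1e-20).

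DDIT4, also called REDD1, is another brake on mTORC1 and lies on chromosome 10 from 72273920 to 72276036. It was at 201, 211 and 210 CPM in controls and 351, 364 and 323 CPM with ILL. The groups were clearly apart, but the fold change was 1.67 (log2 fold change 0.74, SE 0.05, 95% confidence interval 0.63 to 0.85, edgeR adjusted p = 5.7e-12) and stayed below the cutoff for a DEG. In all, 18.8% of tested genes had a higher log2 fold change than DDIT4, against 5.04% for ATF4, 1.87% for DDIT3, 1.36% for SESN2 and 0.727% for ATF3. DDIT4 shares 847 exon bases with an antisense gene, DDIT4-AS1, which is not analysed here.

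To place the changes on a common footing, each regulator was set against ATF4 within the same library, a ratio that no scaling of libraries can move. Per 1000 reads of ATF4, CHAC1 had 22.4, 18.9 and 13.1 reads in controls and 108, 105 and 107 with ILL, a 6-fold higher ratio. TRIB3 had 69.7, 77.8 and 80.8 reads per 1000 ATF4 reads in controls and 200, 198 and 176 with ILL. The ratio to ATF4 also rose 3.18-fold for ATF3, 2.25-fold for SESN2 and 1.83-fold for DDIT3, so these mRNAs gained on ATF4. By contrast, DDIT4 went from 717, 794 and 756 reads per 1000 ATF4 reads to 399, 394 and 339, and ATF5 from 214, 206 and 216 to 38.3, 45.7 and 46.8. CEBPB (0.842-fold) and PPP1R15A (0.880-fold) moved nearly in step with ATF4, although their groups still did not overlap. In an exact two-sided permutation test, each of the 9 ratios had p = 0.1 (0.1 after adjustment over the 9), the smallest p that 3 against 3 libraries allow, so none can pass a threshold of 0.05.

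Levels were compared between genes per length. In the FPKM values deposited by the authors (read counts scaled by gene length and library total), control libraries ran from DDIT4 at 122 ± 2.88 FPKM (SD, n = 3) through CEBPB (42.0), ATF4 (36.5), PPP1R15A (31.2) and ATF5 (21.6) to DDIT3 (6.94) and TRIB3 (6.93), whose ranges overlap. SESN2 (2.77 FPKM), CHAC1 (1.37) and ATF3 (0.878) closed the order. With ILL, DDIT4 stayed first at 194 ± 11.5 FPKM (SD, n = 3), ATF4 (116) and CEBPB (113) had overlapping ranges, and ATF5 had dropped from the fifth to the ninth place. The FPKM of the 10 genes summed to 270, 274 and 272 in control libraries and 668, 703 and 655 in ILL libraries. Within that sum the mean share of DDIT4 went from 44.8% to 28.7%, that of CHAC1 from 0.505% to 3.81%, that of TRIB3 from 2.55% to 8.22% and that of ATF5 from 7.94% to 2.10%. The places and shares depend on the lengths used. The deposited FPKM correspond to 7713 bases for ATF4, 3.07 times the 2514 exon bases of all its transcripts in GENCODE release 29. With the GENCODE lengths, ATF4 was first in both groups, at 112 ± 3.1 recomputed FPKM (SD, n = 3) in controls and 357 ± 13.4 (SD, n = 3) with ILL. The counts stayed as deposited, so if they cover 7713 bases this division can overstate ATF4, which was not tested. CHAC1, with a deposited length 1.81 times that in GENCODE, came to 2.48 ± 0.667 recomputed FPKM (SD, n = 3) in controls and 46.5 ± 1.8 (SD, n = 3) with ILL, and moved from place 7 to 6 with ILL.

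**Figure D3:**
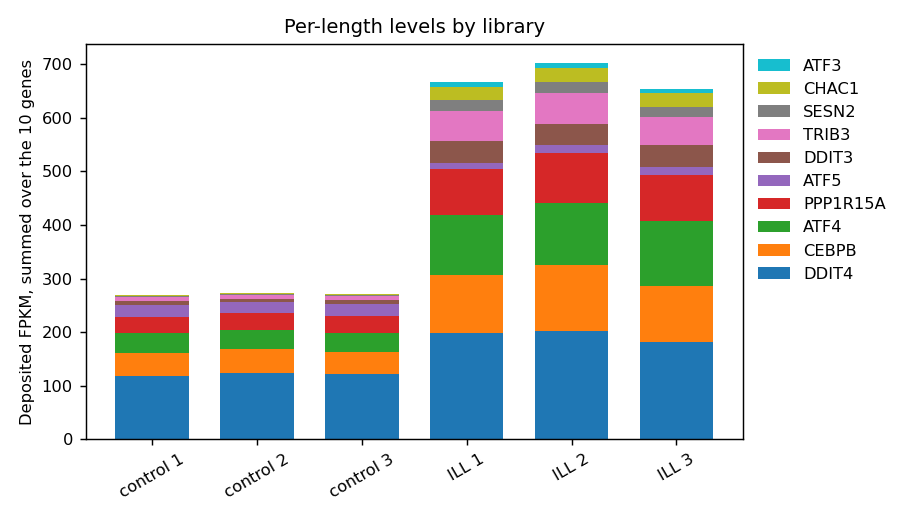
Deposited FPKM of the 10 regulators stacked for each library, 3 control and 3 ILL. The stacks reach 270 to 274 in control and 655 to 703 in ILL libraries, and the ATF5 segment is thinner with ILL.

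Promoters were read because 9 of the genes moved together. RefSeq windows on GRCh38.p14, from 250 bases before to 50 after each annotated start, matched all 10 genes with 18 windows. The start here is the RefSeq start, and some windows, such as those of CHAC1 and ATF4, lie inside the GENCODE span given above. The letters TGATGNAA, where N is any base, which form the core of the C/EBP-ATF response element that ATF4 dimers bind, were found on either strand in windows of 2 of the 10 genes, CHAC1 and ATF3. The share was 2.75% among the 10482 tested genes with a window and 3.62% among all 35116 windows. The palindrome TGACGTCA, the full cyclic AMP response element, was found for 1 of 10 genes, PPP1R15A, and for 3.70% of tested genes. The letters TGATGNAA and TGACGTCA were matched in different windows. The 250 bases before the start are shown for these genes, 5′ to 3′ on the plus strand, with the match in capitals. In CHAC1 the match is on the minus strand and begins 209 bases before the start. In ATF3 it begins 191 bases before the more distal of its annotated starts, and in PPP1R15A 58 bases before the start.
CHAC1, chr15:40953221-40953470: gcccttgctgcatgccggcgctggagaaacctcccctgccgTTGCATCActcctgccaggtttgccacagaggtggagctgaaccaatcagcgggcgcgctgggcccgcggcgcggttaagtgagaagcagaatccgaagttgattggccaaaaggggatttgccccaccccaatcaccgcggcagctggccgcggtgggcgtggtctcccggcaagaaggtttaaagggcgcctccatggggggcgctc
ATF3, chr1:212565157-212565406: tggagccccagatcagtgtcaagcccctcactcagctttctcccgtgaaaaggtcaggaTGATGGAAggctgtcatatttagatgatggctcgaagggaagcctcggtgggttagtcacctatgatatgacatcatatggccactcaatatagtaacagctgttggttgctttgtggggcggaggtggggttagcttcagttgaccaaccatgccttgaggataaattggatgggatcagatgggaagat
PPP1R15A, chr19:48872171-48872420: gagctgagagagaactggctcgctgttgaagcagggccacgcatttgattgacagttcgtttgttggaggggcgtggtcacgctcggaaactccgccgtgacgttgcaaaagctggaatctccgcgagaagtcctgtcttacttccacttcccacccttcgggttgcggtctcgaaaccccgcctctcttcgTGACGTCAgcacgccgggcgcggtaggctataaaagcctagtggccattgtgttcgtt

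Among 25 tested ATF4 and CHOP targets with a window, 8 (32%) held TGATGNAA and 0 held TGACGTCA. In other lists described below, TGATGNAA was found for 2 of 14 relatives of the regulators (14.3%) and 1 of 17 genes upstream of ATF4 (5.88%). It was found for 1 of 19 genes of the ATF6 and XBP1 arms of the unfolded protein response (5.26%). A match of letters is a description and not a binding site, and the windows of the other 7 regulators say nothing of sites outside them.

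Upstream of ATF4, of 20 genes of the eIF2 kinases and their relays, eIF2, its exchange factor eIF2B and the eIF2 phosphatase, all were tested, 6 rose, 10 fell and 4 did not pass at an adjusted p under 0.05, with a median log2 fold change of -0.06. Over all tested genes, 36.2% rose and 36.9% fell. DEGs numbered 0 higher and 2 lower by edgeR and by DESeq2, against 6 higher and 10 lower at an unadjusted p under 0.05 (without ILL replicate 2 the DEGs lower numbered 1, EIF2B3). DEGs made up 12.5% higher and 11.4% lower of all tested genes. EIF2AK3, the kinase PERK of the endoplasmic reticulum (ER), was at 16.8, 21.2 and 22.1 CPM in controls and 28.4, 31.7 and 28.4 CPM with ILL (log2 fold change 0.56, edgeR adjusted p = 1.3e-05). EIF2AK2, the kinase PKR activated by double-stranded RNA, rose by 0.44, and EIF2AK4, the amino acid sensor GCN2, fell by 0.41 on the log2 scale. For EIF2AK1, the heme-regulated kinase HRI, the difference was 0.02 with a standard error of 0.05 (edgeR adjusted p = 0.801). OMA1, a mitochondrial protease that relays stress to HRI, rose by 0.79 from a low level of 3.16 ± 0.195 CPM (SD, n = 3). The largest falls were in the eIF2B subunit EIF2B3, which fell by 1.21, the phosphatase catalytic subunit PPP1CC, which fell by 1.07, and EIF2S1, the eIF2 alpha subunit itself, which fell by 0.88 on the log2 scale. EIF2S1 was at 266, 267 and 254 CPM in controls and 145, 140 and 142 CPM with ILL.

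Of 19 relatives of the regulators 17 were tested, 14 rose, 2 fell and 1, SESN1, did not pass, with 3 DEGs higher and 2 lower and a median log2 fold change of 0.54. The counts of DEGs are near the background of 12.5% higher and 11.4% lower, and 36.2% of all tested genes rose. CHAC2, the housekeeping relative of CHAC1, was at 26.9, 26.4 and 22.7 CPM in controls and 6.60, 5.35 and 5.75 CPM with ILL, and fell by 2.10 on the log2 scale (SE 0.11, edgeR adjusted p = 2.4e-14). There were 0.233, 0.191 and 0.161 CHAC1 reads for each CHAC2 read in controls and 14.3, 18.2 and 17.8 with ILL, an 86.2-fold shift. Among the sestrins, SESN3 fell by 1.22 and SESN1 differed by 0.32 (edgeR adjusted p = 0.0537), so that SESN2 reads per SESN3 read went from 0.995, 1.15 and 1.12 to 16.2, 20.7 and 21.1.

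TRIB1 and TRIB2, the other tribbles pseudokinases, rose by 0.54 and 0.34, and TRIB3 reads per TRIB1 read went from 0.544, 0.558 and 0.578 to 3.25, 3.28 and 3.21. PPP1R15B, the constitutive counterpart of PPP1R15A, rose by 0.48, and the reads of PPP1R15A per read of PPP1R15B were 1.11, 1.16 and 1.24 in controls and 2.31, 2.67 and 2.47 with ILL. DDIT4L was the exception. It had 20, 43 and 17 counts in controls and 122, 151 and 95 with ILL, a log2 fold change of 2.26 (SE 0.36, edgeR adjusted p = 4.7e-06), against 0.74 for DDIT4. Among the leucine zipper relatives, JDP2, a repressor close to ATF3, rose by 1.87, and CEBPG, a partner of ATF4, rose by 1.17, from 41.6, 39.8 and 39.5 CPM to 95.3, 87.4 and 89.4 CPM. The lowest rise among the tested relatives that passed was in ATF1, at 0.30. These 9 ratios between a regulator and a relative were chosen after the values were seen, and each had p = 0.1 in the exact two-sided permutation test (0.1 after adjustment over the 9), the smallest that this design allows.

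Downstream, 34 ATF4 and CHOP target genes outside the 10 were examined, of which 33 were tested, 31 rose, 1 fell and 1 did not pass. DEGs numbered 26 higher and 0 lower by edgeR and 27 higher and 0 lower by DESeq2, with 1 gene lower at an unadjusted p under 0.05. Of all tested genes, 36.2% rose, 36.9% fell, 12.5% were DEGs higher and 11.4% were DEGs lower. The median log2 fold change was 1.74, and whether other inputs raise some of these targets was not tested. GDF15, a secreted stress cytokine, was at 15.8, 15.7 and 15 CPM in controls and 378, 428 and 363 CPM with ILL (log2 fold change 4.65). ADM2, a peptide hormone of the calcitonin family, rose by 4.35, and INHBE, an activin subunit gene, rose by 3.82. Among targets with a mean of at least 1 CPM, the lowest values were those of ALDH18A1, a proline synthesis enzyme, which fell by 0.52, NARS1, the asparaginyl-tRNA synthetase, which rose by 0.38, and ERO1A, an ER oxidase, which rose by 0.56.

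Lists for other inputs that can raise some of these regulators gave smaller medians, with each gene placed in a single list. Some genes answer to several inputs, so the medians depend on that placement. The part of each input in the change of the regulators was not tested. The counts of these lists stand against 36.2% of all tested genes that rose, 36.9% that fell, 12.5% that were DEGs higher and 11.4% DEGs lower. The ATF6 and XBP1 arms of the unfolded protein response, which raise ER chaperones beside PERK, had 14 of 19 genes higher and 3 lower, with 4 DEGs higher and a median log2 fold change of 0.48. HERPUD1, an ER degradation protein that ATF4 also induces, rose by 2.41, DNAJB9 by 1.80 and the sensor gene ERN1 by 1.34, while SDF2L1 fell by 0.87, CRELD2 by 0.19 and DNAJB11 by 0.17. Of 12 p53 targets, which matter because SESN2 and ATF3 are also p53-responsive, 9 rose and 1 fell, with 3 DEGs higher and a median of 0.51. TP53INP1 rose by 3.39, the cell cycle inhibitor CDKN1A by 2.88 and BTG2 by 1.04, BAX fell by 0.29, and FAS (-0.04) and TIGAR (0.01) did not pass.

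Hypoxia raises DDIT4, and of 12 hypoxia-inducible genes 10 were tested, 7 rose and 1 fell, with 2 DEGs higher and a median log2 fold change of 0.62. NDRG1 rose by 4.11, from 28.7, 25.8 and 37.3 CPM to 542, 513 and 526 CPM, VEGFA, which ATF4 can also induce, rose by 2.15 and KDM3A by 0.95. PDK1 fell by 0.35, and PFKFB4 (-0.23) and ANKRD37 (0.30) did not pass. ATF3, PPP1R15A and CEBPB can also respond as immediate-early genes, and of 15 such genes 13 were tested, 9 rose and 2 fell, with 5 DEGs higher, 1 lower and a median of 0.60. By DESeq2 the immediate-early DEGs numbered 7 higher and 1 lower. EGR1 rose by 1.93, ZFP36 by 1.76 and BTG1 by 1.58, whereas FOSL1 fell by 1.16, MYC fell by 0.56 and FOSB (-0.05) did not pass. DESeq2 also called 0 DEGs lower in the unfolded protein response, p53 and hypoxia lists, in which 3, 1 and 1 genes were lower at an unadjusted p under 0.05. The 2 DEGs among 10 tested hypoxia genes are not far from the background of DEGs higher.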

How the data were processed

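RNA-seq data of HCCC9810 cells, 3 control and 3 ILL libraries, were taken from 2 tables. The authors deposited 1 table of raw counts by gene and 1 of FPKM, whose values equal the count divided by a gene length and the library total in 100% of 88055 nonzero values within 0.1%. The submitters' processing notes name GRCh38 and DESeq2, while the aligner, counting program and annotation are not given in the sources used here. Total counts were 34282764 to 37758569 per library, and the biological coefficient of variation was 0.0717. Counting error weighs most on the regulators with few control counts, ATF3 (87 to 94), CHAC1 (129 to 244) and DDIT3 (196 to 242).

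Genes were filtered with filterByExpr, scaled by TMM and tested with the quasi-likelihood test of edgeR 4.0.16 (R 4.3.3), with Benjamini-Hochberg adjustment over the 13066 genes tested. A standard error is the log2 fold change over the root of its F statistic. The alternatives were a fit without the filter or with a minimum of 10 counts per library, scaling by DESeq2's size factors or by library size alone, DESeq2 1.42.0, a block for the replicate number, leaving out 1 library at a time, no fold change cutoff, and limma 3.58.1 on log2 of FPKM plus 1 or plus 0.1 with a mean FPKM of at least 1 or no filter. Ratios within a library used counts plus 0.5 and exact permutation tests (scipy 1.17.1). The fit was tested on simulated data. Positions come from GENCODE release 29 on GRCh38 and sequences from RefSeq on GRCh38.p14.

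The 10 genes and the related lists were chosen with earlier results of these data known. Genes named are the 10, their closest relatives, the eIF2 kinases, and in each other list the 3 highest and 3 lowest log2 fold changes among tested genes with a mean of at least 1 CPM. NUP62, MARS1, MBD6, AC022506.1 and the antisense genes are named because they overlap a regulator.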

Additional observations from a re-analysis of the deposited data

How the results depend on the processing

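The counts of regulators were 8 DEGs higher, 0 lower, 9 higher and 1 lower by adjusted p in all 15 alternatives that refit the data, and each of the 10 genes kept its direction and its side of the adjusted p threshold. Over those alternatives the log2 fold change ran from 3.50 to 4.49 for CHAC1, from 2.40 to 3.52 for ATF3, from 1.65 to 1.77 for ATF4, from 0.66 to 0.79 for DDIT4 and from -0.62 to -0.42 for ATF5. The low ends of CHAC1 and ATF3 come from limma on log2(FPKM + 1), where the pseudocount shrinks changes of low genes. With library size alone as the scaling, the median of all genes moved from -0.0012 to -0.0702, and DEGs higher made up 47.4% of all DEGs. With the adjusted p alone, the lists held 6 higher and 10 lower for the eIF2 genes, 14 higher for relatives, 1 lower for ATF4 and CHOP targets, 14 and 3 for the unfolded protein response, 9 and 1 for p53 targets, 7 and 1 for hypoxia and 9 and 2 for immediate-early genes, which follows from the lack of a fold change cutoff. The eIF2 genes had 1 to 2 DEGs lower when 1 library was left out. With limma on FPKM, relatives had 1 DEG lower under each of the 3 settings, and all genes gave 668 DEGs higher and 923 lower (plus 1), 909 higher and 1247 lower (plus 0.1) and 680 higher and 929 lower (plus 1, no filter), so that DEGs higher made up 42.0% to 42.3% against 52.4%, and the cause was not tested. The median of all genes was -0.0862 (plus 1) and -0.101 (plus 0.1).

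The replicate block gave 8 DEGs higher and 0 lower among the regulators, and 1627 higher and 1484 lower over all genes. Deviations of same-numbered libraries from their group means correlated by -0.0218 to 0.0107, and the labels name no shared batch, so the libraries were not treated as pairs, although the replicate 1 libraries shared reads of 1 blood marker. The replicate block changed no call of a regulator and moved no count of a list by over 1.5 times. Taking the GENCODE length, a choice made after seeing the data, moved ATF4 to place 1 from 3 in control and from 2 in ILL libraries.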
